A study of Mus musculus with 3 samples.

Results

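The 44 genes described here encode enzymes and complexes that write, read and remove marks on DNA and histones, or move nucleosomes. They were taken by symbol from the 50600 gene identifiers counted in the libraries, of which 21764 are coding genes, and all 44 were found. RNA came from primary mouse T-helper 1 (Th1) cells of the C57BL/6NJ strain, and the linked protocol names differentiation of CD4+ T cells. The 3 biological replicates form 1 group, and each has its own biosample but all name the same donor. The labels give no allele or agent, leave sex and age unrecorded, and hold no second condition, and a tag of 16 hr stands in the headers of the count files alone. Levels are compared between genes within a library, and the 3 libraries give the error. The labels do not say whether the replicates came from separate animals or cultures, so p-values and SDs measure only the spread between these libraries.

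DNA methylation is copied to new strands by Dnmt1, which Uhrf1 guides to replicated DNA, is set anew by Dnmt3a and Dnmt3b, and is oxidised by the Tet enzymes as a step in its removal. Polycomb repressive complex 2 (Ezh2 or Ezh1 with Eed and Suz12) methylates histone H3 at lysine 27, and Polycomb repressive complex 1 (Ring1 or Rnf2 with partners such as Bmi1) ubiquitinates histone H2A. In helper T cells, DNA methylation and Polycomb marks are known to hold cytokine and lineage regulator genes of the other subsets silent.

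Depth was modest and uneven. The libraries held 4764598, 2568928 and 2815439 counts in replicates 1, 2 and 3, and 1 TPM (counts divided by exon length and scaled to the same sum in each library) stood for 2.25, 1.28 and 1.59 counts per kilobase. No pair of libraries agreed within sampling noise, since the chi-square statistic of their counts was 14.2 to 32.8 times its degrees of freedom. All 12 T cell markers, Cd4 and Trac among them, reached 1 TPM in every library. Of 10 Th1 markers 2 did so, and 7, including Ifng, stayed under 1 TPM in every library. Tbx21, the defining Th1 regulator, had 2, 10 and 2 counts in replicates 1, 2 and 3. Of 27 markers of other cell types, 3 reached 1 TPM in every library. These were Csf1r at 124 TPM ± 12.7, which overlaps exons of an opposite-strand gene, Cd8b1 at 17.4 ± 10.7 and Pecam1 at 3.01 ± 0.99 (SD, n = 3). Other markers that define B cells, macrophages and NK cells stayed under 1 TPM in every library, except Cd79a with 27, 0 and 17 counts. Summed over each list, B cell markers held 8.53, 0 and 7.34 TPM in replicates 1, 2 and 3, myeloid markers 122, 112 and 138, NK and CD8 markers 29.2, 7.93 and 15.3, and erythroid and stromal markers 4.71, 3.66 and 2.23. Their part in the levels below was not tested. In bulk RNA, fewer cells of a type and less RNA per cell cannot be told apart.

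The libraries also differed in sex-linked genes, although the labels name 1 donor. Kdm5d and Uty, Y-linked histone demethylase genes, had 69, 0 and 46 counts and 32, 0 and 20 counts in replicates 1, 2 and 3. Xist, the RNA that coats the inactive X chromosome, had 807, 1110 and 4 counts, and it too has exons inside a gene of the other strand. Replicate 2 thus held Xist without counts on these Y-linked genes, replicate 3 held the Y-linked genes with 4 counts of Xist, and replicate 1 held both. The X-linked counterparts Kdm5c, a demethylase of H3 lysine 4, and Kdm6a, of H3 lysine 27, had 529, 345 and 179 counts and 126, 61 and 34 counts. The part of this difference in the regulators' levels was not tested.

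Exon overlap between strands was more frequent among the regulators than among coding genes. The files were counted with strand setting 1, and genes whose exons meet an exon of the other strand held 56.1%, 60.3% and 71.6% of all counts in replicates 1, 2 and 3. Of the 44 regulators, 17 have such an overlap, 38.6% against 22.1% of coding genes. The 17 are Dnmt3a, Tet2, Ezh2, Eed, Suz12, Rnf2, Kdm2b, Kmt2a, Suv39h1, Suv39h2, Setdb1, Kdm6b, Hdac7, Sirt1, Smarca2, Smarcc1 and Ctcf. Another 3 (Dnmt3b, Dot1l and Kdm1a) lie partly within a gene of the other strand without meeting its exons. The remaining 24 are called clear below. Whether setting 1 matches the orientation of these libraries is not given in the sources used here. Whether the counts of a regulator are reads of its own mRNA was not tested, and this holds for clear genes too, so levels and detection below refer to the counts as deposited.

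Short coding stretches show where regulators share bases with a gene of the other strand. They were chosen because their opposite genes had the higher counts per kilobase of exon in every library. They are given 5′ to 3′ on the regulator's strand, from GENCODE vM21 transcripts on mm10 (GRCm38), and capitals mark the bases that lie within an exon of the opposite gene. The Suz12 stretch is exon 10, chr11:80022092-80022269 on the plus strand, opposite Gm26563. The Suv39h1 stretch is exon 2 at chrX:8072323-8072468 on the minus strand, opposite Gm14820, and the Kdm6b stretch is exon 17 at chr11:69401515-69401663 on the minus strand, opposite Kdm6bos.
Suz12 exon 10: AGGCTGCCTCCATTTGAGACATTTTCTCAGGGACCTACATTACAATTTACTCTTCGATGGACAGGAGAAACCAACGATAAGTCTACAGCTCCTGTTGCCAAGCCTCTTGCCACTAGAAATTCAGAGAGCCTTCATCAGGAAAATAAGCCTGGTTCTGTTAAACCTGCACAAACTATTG
Suv39h1 exon 2: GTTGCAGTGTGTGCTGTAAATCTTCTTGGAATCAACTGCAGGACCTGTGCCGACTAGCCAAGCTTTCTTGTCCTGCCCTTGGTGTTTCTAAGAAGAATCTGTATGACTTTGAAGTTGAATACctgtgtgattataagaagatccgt
Kdm6b exon 17: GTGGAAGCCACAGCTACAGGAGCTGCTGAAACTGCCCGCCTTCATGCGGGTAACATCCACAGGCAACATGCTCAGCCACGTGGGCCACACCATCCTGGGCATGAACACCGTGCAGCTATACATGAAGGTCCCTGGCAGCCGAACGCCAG

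Of 21 opposite-strand genes that overlap exons of these 17 regulators, 7 had more counts per kilobase than the regulator in every library, 9 had fewer in every library and 5 were mixed. Over all coding genes at 1 TPM or more in every library, 49.4% of such opposite genes were higher in every library. Suv39h1 held 279, 79 and 84 counts in replicates 1, 2 and 3, against 1837, 1063 and 1754 for Gm14820. Per kilobase Gm14820 was at 16.6, 33.8 and 52.5 times the level of Suv39h1, the widest gap of the 21 in replicates 2 and 3. Kdm6b held 395, 155 and 192 counts, against 863, 517 and 989 for Kdm6bos, which had 18.1, 27.6 and 42.6 times as many per kilobase. The remaining 5 of the 7 were 4931403E22Rik over Smarca2 (9.83, 10.1 and 16.4 times), Gm26625 over Ezh2 (5.65, 5.86 and 13.8 times), Gm26563 over Suz12 (2.94, 6.24 and 8.88 times), Rnf34 over Kdm2b (3.68, 6.20 and 4.81 times) and Cers2 over Setdb1 (1.91, 2.16 and 2.98 times). In 6 of the 7 pairs the ratio was highest in replicate 3, the library with the largest share of counts on overlapped genes. The same share over all overlapped coding genes is not given here, so the count cannot be called particular to the regulators.

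The overlaps themselves were short beside the genes. Between 2.04% and 36.6% of the exon bases of these 7 opposite genes lay on exons of the regulator, and Gm26625, which lies wholly within the body of Ezh2, shared 174 of its 2538 exon bases. The pairs were also split by position, which was set by the outermost ends of each regulator. None of the 8 opposite genes over a regulator's 5′ end were higher in every library, against 4 of 7 over the 3′ end and 3 of 6 within the regulator. The same shares over all detected coding genes were 44.6% at the 5′ end, 46.5% at the 3′ end and 65.4% within. The pairs at each position are few, and a difference between positions was not tested. Gm14820, placed over the 3′ end of Suv39h1, also has 37 exon bases in a 300-base window at a RefSeq start of that gene. The split by position is thus not clean for this pair. Eed, whose 5′ end is overlapped by E230029C05Rik, and Kmt2a, overlapped there by AC061963.1, were among the mixed pairs. Per kilobase, E230029C05Rik stood at 0.740, 0.607 and 2.10 times Eed in replicates 1, 2 and 3.

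**Figure D1:**
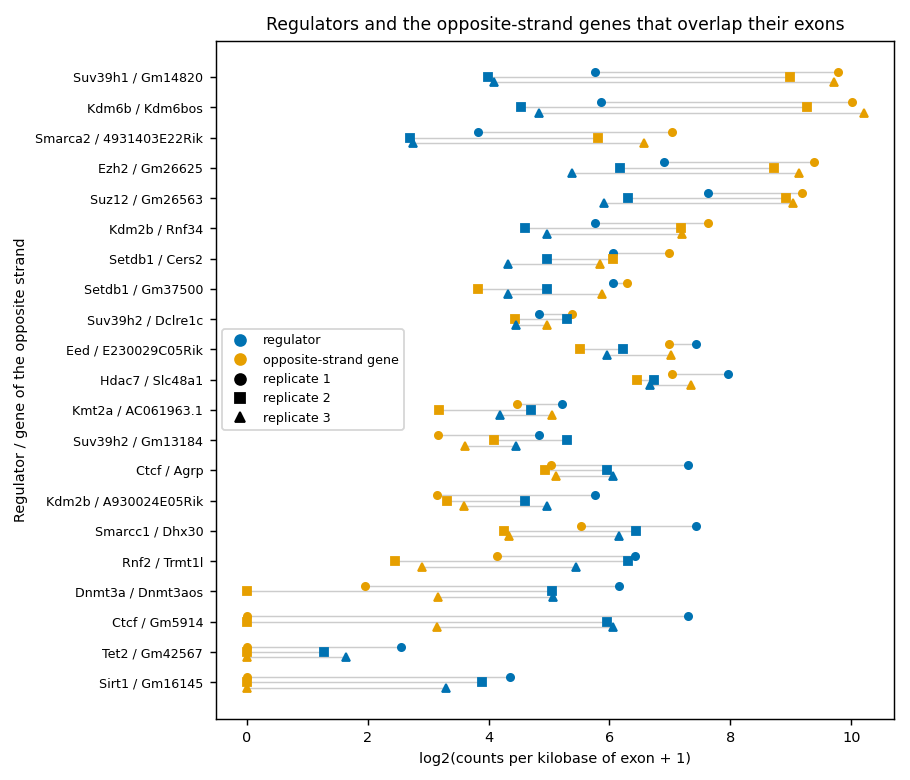
Counts per kilobase of exon, as log2(value + 1), for each regulator (blue) and the opposite-strand gene that overlaps its exons (orange), with 1 line and symbol per replicate. The pairs are ordered by their mean ratio, and in the upper 7 rows the orange points lie to the right in all 3 libraries.

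Nearly all of the regulators had counts above the detection level. Of 44, 43 (97.7%) reached 1 TPM in every library, against 39.8% of coding genes. Tet1 alone stayed under 1 TPM in every library, against 51.1% of coding genes. With TPM computed over clear genes alone, Tet1 was at 0.757, 0 and 1.396 in replicates 1, 2 and 3, and so passed 1 in replicate 3. The regulators' median was 25.1 TPM ± 6.11 (SD, n = 3), against 0.269 ± 0.240 over coding genes and 13.9 ± 3.73 over coding genes detected in every library. The list holds long genes, with a median of 6766 exon bases against 3282 over coding genes. TPM was lowest in replicate 3 for 38 of 44 regulators, as it was for 72.9% of detected coding genes, and highest in replicate 1 for 30, against 57.7%. This order of the libraries depended on the genes over which TPM was computed. Of the 24 clear regulators, 21 were lowest in replicate 3 with TPM over all genes, and 5 with TPM over clear genes alone, against 43.0% of detected clear coding genes on that second scale. On it 9 of the 24 were highest in replicate 3, 10 in replicate 1 and 5 in replicate 2. The matching shares of clear coding genes are not given here, so these counts describe the 24 alone. Dnmt1 had 437, 402 and 477 TPM in replicates 1, 2 and 3, Chd4 had 555, 518 and 577, and Smarca4 had 258, 274 and 298, 3 of those 9. TPM values below are over all genes. The regulators held 0.600%, 0.545% and 0.421% of all counts in replicates 1, 2 and 3.

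Among DNA methylation genes the maintenance pair was the most abundant. Uhrf1 had 134, 76.2 and 67.3 TPM in replicates 1, 2 and 3 (92.6 ± 36.4; SD, n = 3), and Dnmt1 had 136, 114 and 85.7 TPM (112 ± 25.2). Both are clear genes, and both stood above every other DNA methylation gene of the list in each library. Of the de novo enzymes, Dnmt3b had 9.82, 10.6 and 6.65 TPM, and Dnmt3a had 31.1, 25.2 and 20.4 TPM. On the log2(TPM + 1) scale Dnmt3a lay below Dnmt1 by a nearly constant amount, at -2.10, -2.13 and -2.02 in replicates 1, 2 and 3. Dnmt3b lay below Dnmt3a, at -1.57, -1.18 and -1.48. The sizes depended on length scaling, since in CPM the mean ratio was -0.95 for Dnmt3a to Dnmt1, -3.16 for Dnmt3b to Dnmt3a and -1.10 for Uhrf1 to Dnmt1.

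The 3 Tet genes, whose enzymes oxidise methylcytosine, kept 1 order in every library, with Tet3 above Tet2 above Tet1. Tet3 had 13.4, 10.2 and 7.08 TPM. Tet2 had 2.16, 1.11 and 1.34 TPM from 82, 24 and 36 counts. Tet1 had 8, 0 and 6 counts over 15065 bases of exon, and its level could not be told from counting error in replicate 2, where a count of 0 allows up to 3 counts, or 0.156 TPM. The log2 ratio of Tet3 to Tet2 was 2.13 ± 0.32 and that of Tet2 to Tet1 was 1.11 ± 0.23 (SD, n = 3). The second is set partly by the pseudocount of 1.

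All 8 Polycomb genes were detected. The core of repressive complex 2 was abundant, with Suz12 at 87.4, 61.0 and 37.3 TPM and Eed at 75.7, 57.5 and 38.6 TPM. Their log2 ratio was 0.08 ± 0.13 and changed sign between libraries, so the TPM levels of the pair did not differ beyond their spread. Without length scaling Suz12 was above Eed in each library, with 974, 385 and 293 counts against 653, 281 and 235. The mean ratio in CPM was 0.45. Ezh2, the catalytic subunit of dividing cells, had 52.5, 56.1 and 25.6 TPM. Ezh1, its paralog known from resting and differentiated cells, had 4.29, 8.64 and 2.03 TPM. Ezh2 was above Ezh1 in all 3 libraries, by 3.34, 2.57 and 3.14 on the log2 scale. Suz12, whose shared exon is printed above, and Ezh2 lie opposite genes with higher counts per kilobase, Eed has a mixed one, and Ezh1 is clear.

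In repressive complex 1 the 2 E3 ligase genes differed. Rnf2 (Ring1B) had 37.6, 61.5 and 26.8 TPM, and Ring1 had 11.8, 8.70 and 8.92 TPM, a log2 ratio of 1.92 ± 0.66 (SD, n = 3) with 1 sign in 3 of 3 libraries. Bmi1, a partner that stimulates the ligase, had 39.1, 35.5 and 17.4 TPM. Its ratio to Rnf2 was 0.05, -0.78 and -0.60, with no shared sign. Kdm2b, a demethylase that brings a variant of the complex to unmethylated CpG islands, had 23.6, 18.3 and 19.1 TPM and lies opposite the higher Rnf34.

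Histone methylation enzymes covered a wide range of levels, and all 13 were detected. Prmt5, which methylates arginine symmetrically, had 85.6, 67.9 and 40.2 TPM. Prmt1, the main enzyme for asymmetric arginine methylation, was the most abundant of all 44 by its mean, with 193, 143 and 95.1 TPM. The log2 ratio of Prmt5 to Prmt1 was -1.15 ± 0.08 (SD, n = 3), with both genes clear. Dot1l (H3 lysine 79) averaged 39.2 TPM ± 5.19 and the lysine demethylase Kdm1a 29.7 ± 8.93 (SD, n = 3). Kdm6b, the demethylase of H3 lysine 27 known from T-bet-dependent gene activation, had 25.2, 17.5 and 17.4 TPM and lies opposite the far higher Kdm6bos.

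The H3 lysine 9 methyltransferases differed in level between partners. Ehmt2 (G9a) had 39.1, 47.4 and 23.6 TPM, above its partner Ehmt1 (GLP) with 12.4, 9.85 and 7.13 TPM, by a log2 ratio of 1.78 ± 0.33 in genes that are both clear. Setdb1, which acts with Trim28, averaged 21.5 TPM ± 8.73 (SD, n = 3). The paralogs Suv39h1 and Suv39h2 had no fixed order. Suv39h1 had 23.5, 11.8 and 10.02 TPM, while Suv39h2 had 12.3, 30.2 and 13.1 TPM. Their log2 ratio was 0.88, -1.29 and -0.36 in replicates 1, 2 and 3.

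The large H3 lysine 4 and lysine 36 methyltransferases had means between 13.4 and 19.8 TPM. Kmt2d (MLL4) had 14.1, 15.5 and 10.6 TPM, Kmt2a (MLL1) had 16.0, 19.7 and 10.9 TPM, and Setd2, which trimethylates lysine 36, had 20.9, 28.1 and 10.2 TPM. The ratio of Kmt2d to Kmt2a was -0.18 ± 0.15 on the log2 scale. It turned to 0.068 in CPM (counts per library total), where exon length plays no part.

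Among the histone acetylation genes, Hdac7, Hdac2 and Hdac1 had the highest means. Hdac7, a class IIa deacetylase known in T cells, had 110, 82.4 and 63.8 TPM and overlaps Slc48a1 by 29 bases. Hdac2 had 88.8, 63.3 and 41.9 TPM and Hdac1 had 68.2, 71.9 and 45.6 TPM. The ratio of Hdac2 to Hdac1, catalytic subunits that share complexes, was 0.38, -0.18 and -0.12, so neither was higher throughout in TPM. Without length scaling Hdac2 was above Hdac1 in each library, with 896, 361 and 298 counts against 530, 316 and 250. The mean ratio in CPM was 0.40. Hdac3, the deacetylase of the NCoR complexes, averaged 16.8 TPM ± 6.72, and Sirt1, an NAD-dependent deacetylase, 8.36 ± 2.68 (SD, n = 3). The coactivator genes Crebbp and Ep300 averaged 9.49 ± 4.69 and 8.61 ± 2.51 TPM, with a ratio of 0.06 ± 0.31 that changed sign, and Kat2a (GCN5) averaged 32.1 ± 10.6 TPM.

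Among remodellers, Chd4, the ATPase of the NuRD complex, led with 173, 147 and 104 TPM. Smarca4 (Brg1), an ATPase of SWI/SNF, had 80.3, 77.7 and 53.4 TPM, and its paralog Smarca2 (Brm) had 5.88, 4.29 and 3.61 TPM. The log2 ratio of Smarca4 to Smarca2 was 3.56, 3.90 and 3.56, the widest of the 18 pairs per length. In CPM, which leaves exon length out, it was 2.77, below the 3.08 of Ezh2 to Ezh1. Smarca2 is overlapped by the higher 4931403E22Rik, while Smarca4 is clear. Smarcc1 averaged 62.5 TPM ± 16.2 and Smarcb1, another core subunit, 12.7 ± 3.79 (SD, n = 3). Of the alternative subunits, Arid1b had 7.18, 4.54 and 3.84 TPM and Arid1a had 35.4, 31.1 and 23.1 TPM, a log2 ratio of -2.33 ± 0.19. Ctcf, the insulator protein, had 69.7, 47.9 and 41.4 TPM.

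**Figure D2:**
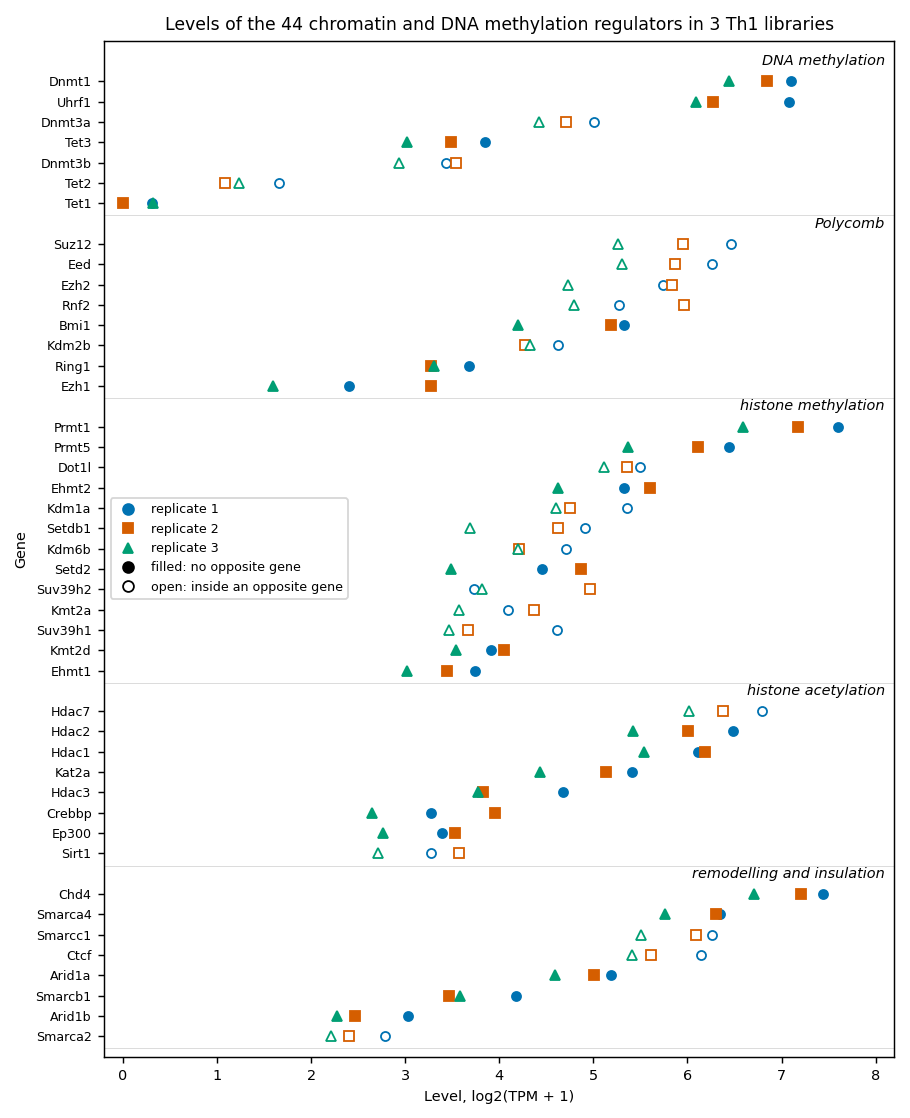
Level of each of the 44 regulators as log2(TPM + 1), grouped by role, with 1 symbol per replicate; filled symbols mark clear genes and open symbols genes with exons inside an opposite-strand gene. Prmt1, Chd4, Dnmt1 and Uhrf1 lie farthest right by their means, and Tet1 is the only gene under 1 TPM in every library.

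The order of levels was stable only in broad terms. Of 43 neighbouring pairs in the order by mean TPM, 9 kept their order in every library and 34 did not, so most neighbours cannot be ranked against their spread. Chd4 was above Dnmt1, Dnmt1 above Uhrf1, and Hdac7 above Smarca4 in all 3. Prmt1 and Chd4, first and second with 144 and 141 TPM, changed places between libraries. At the low end, Smarca2 was above Tet2 and Tet2 above Tet1 in all 3.

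Ratios within a library remove the shared shift of replicate 3. Of 18 pairs of paralogs and partners, 13 had 1 sign in 3 of 3 libraries and 5 did not. The 5 were Suz12 to Eed, Bmi1 to Rnf2, Suv39h1 to Suv39h2, Hdac2 to Hdac1 and Crebbp to Ep300. The exact two-sided sign-flip test over libraries gave p = 0.25 for each of the 13, the smallest that n = 3 allows, and a Benjamini-Hochberg adjusted p = 0.346 over the 18, so no pair could pass a threshold of 0.05. In 12 pairs at least 1 gene is not clear. In CPM, 9 of the 18 mean ratios moved by over 1.5 times or changed sign. The ratio of Hdac7 to Hdac3 was 2.31 ± 0.22, and that of Uhrf1 to Dnmt1 was -0.31 ± 0.28 (SD, n = 3). Uhrf1 and Dnmt1 are both clear, and their ratio was close to 0 in replicate 1 (-0.02).

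**Figure D3:**
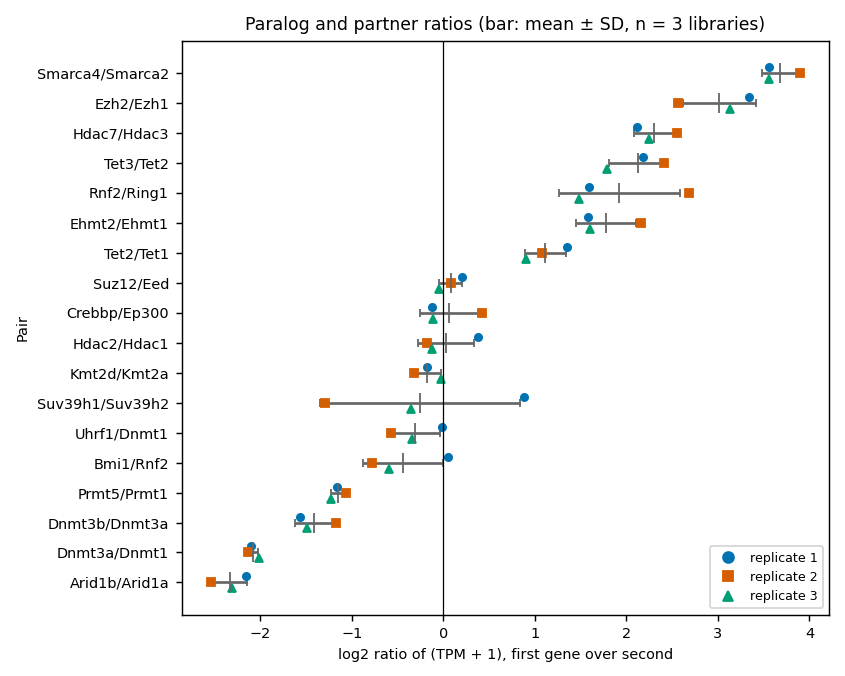
The log2 ratio of (TPM + 1) for 18 pairs, first gene over second, with 1 symbol per replicate and a bar for the mean ± SD (n = 3 libraries). Smarca4 over Smarca2 and Ezh2 over Ezh1 lie farthest to the right, Arid1b over Arid1a and Dnmt3a over Dnmt1 farthest to the left, and 5 pairs straddle 0.

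TMM scaling reduced the shift between whole libraries but did not remove it. The median difference of coding genes from their own means was still 0.0977, -0.0075 and -0.0745 in replicates 1, 2 and 3. On this scale the SDs of the regulators were smaller at the median than those of coding genes. Set against counting error, the share of regulators that varied was not lower. The median SD of log2(CPM + 1) was 0.240 over the 44, against 0.407 over 10533 coding genes with a mean of at least 1 CPM. Counting error alone would give a median SD of 0.0845 for the regulators and 0.172 for those coding genes, which have fewer counts. An SD of at least 0.5 was reached by 4 of 44 (9.09%), against 37.2% of the coding genes. Scaled by library totals alone, 9 of 44 did so, against 47.3%. An SD above 2 times the counting SD was reached by 26 of 43 (60.5%; Tet1 has a count of 0), against 53.0%. Arid1a, Smarca4, Chd4, Dnmt1 and Smarcc1 had the smallest spreads, with SDs of 0.033, 0.046, 0.056, 0.060 and 0.068. For Arid1a and Smarca4 these were below the counting SDs of 0.063 and 0.054, so spreads this small cannot be told from counting error.

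The 4 with an SD of at least 0.5 were Tet1, Ezh1, Suv39h2 and Crebbp. Ezh1 had 72, 82 and 24 counts, so its scaled level in replicate 2 was above its mean by 0.87 on the log2 scale, and in replicate 3 it was at -0.64. Suv39h2 had 122, 170 and 92 counts and Crebbp 265, 251 and 113, and both were highest in replicate 2, at 0.70 and 0.61. Setd2 and Rnf2, next in SD among genes, were also highest there, at 0.51 for each. In all, 15 of 44 regulators were highest in replicate 2, against 34.7% of the coding genes. Without replicate 2 an SD of at least 0.5 was reached by 1 regulator, Suv39h2, against 25.6% of coding genes. Without replicate 3 it was reached by 8, against 32.1%. The edgeR biological coefficient of variation of the regulators ranged from 0.281 to 0.366, with a median of 0.288 against 0.308 over 9466 genes. These tagwise values are drawn towards those of other genes, so their narrow range does not measure each gene's own spread. Arid1a and Setd2, with SDs of 0.033 and 0.48, had 0.284 and 0.292.

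**Figure D4:**
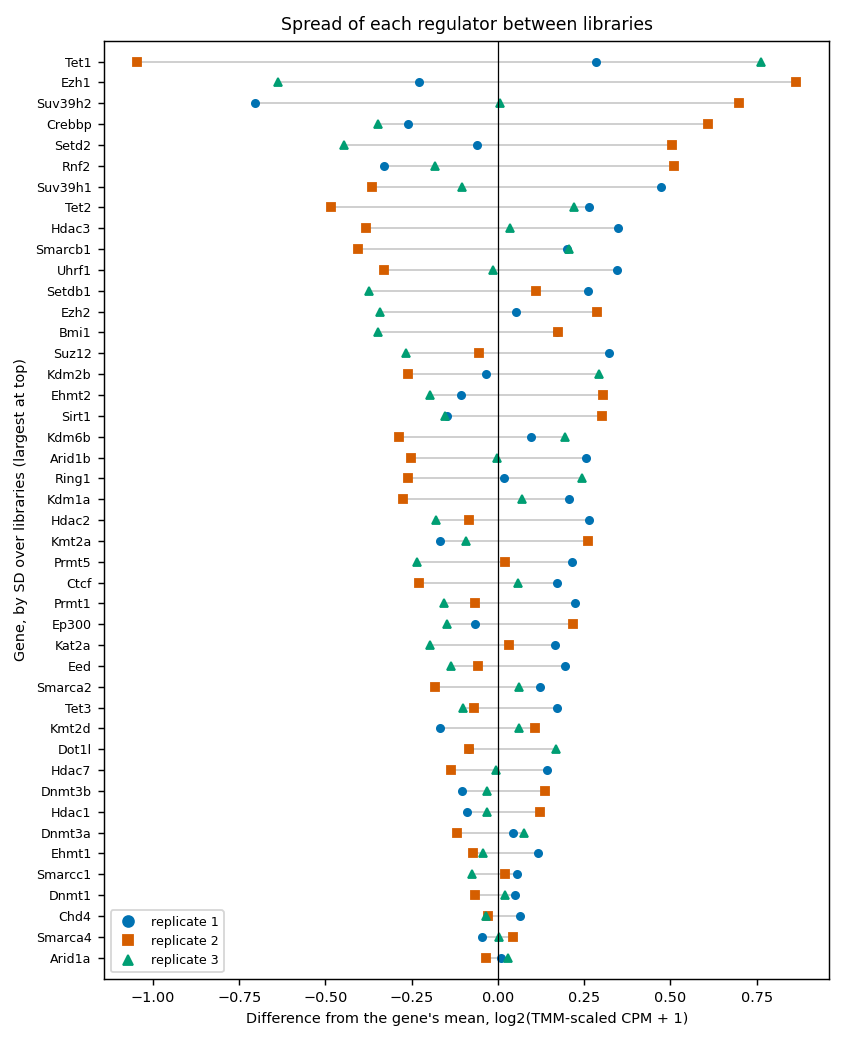
Difference of each library from the gene's mean in log2(TMM-scaled CPM + 1), 1 row per regulator, ordered by SD with the largest at the top. Tet1, Ezh1, Suv39h2 and Crebbp spread widest, and the lowest rows, Smarca4 and Arid1a, stay within 0.05 of their means.

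Other genes of the same complexes were mostly detected as well. Of 179 genes on 11 lists of partners and families, 160 (89.4%) were detected, against the 39.8% of coding genes above, and 10 stayed under 1 TPM in every library. All 10 cohesin genes, partners of Ctcf at loop anchors, were detected, led by Smc1a (103 TPM ± 29.4) and Rad21 (66.3 ± 27.0; SD, n = 3). Of 27 further Polycomb genes 25 were detected, led by the histone-binding subunits Rbbp7 (154 ± 62.5) and Rbbp4 (37.6 ± 17.1). All 15 heterochromatin genes were detected, with the corepressor Trim28 at 114 TPM ± 34.1. The trithorax list had 14 of 15 genes detected, the demethylase list 14 of 15, and the list of acetyltransferases and readers 14 of 15. Their highest genes were Dpy30, a core subunit of the lysine 4 complexes (69.7 TPM ± 27.9), the demethylase Phf2 (34.2 ± 10.04) and the histone acetyltransferase Hat1 (73.2 ± 32.6).

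Of 22 further SWI/SNF genes 19 were detected, led by the actin gene Actb at 846 TPM ± 285 (SD, n = 3). The 3 that were not are Actl6b, Dpf1 and Dpf3, subunits known from neurons and muscle, with at most 2 counts in each library. In the NuRD and remodeller list, 18 of 20 were detected, with Mta2 (77.4 TPM ± 29.4) and the replication-linked remodeller Hells (66.7 ± 29.3) the highest, while Chd5 and Smarca1 were not. In the DNA methylation list, 11 of 14 were detected, led by the replication clamp Pcna (227 TPM ± 99.2) and the NuRD subunit Mbd3 (98.1 ± 28.4). Dnmt3l and Dppa3, known from germ cells and early embryos, had 0 counts in every library, which allows up to 0.787 and 2.64 TPM by counting error alone. Of 18 further deacetylase and corepressor genes 14 were detected, and Hdac9 and Hdac11 stayed under 1 TPM in every library. Of 8 further arginine methylation genes 6 were detected, and Prmt8, known from brain, had 0 counts in every library.

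The promoters of the regulators were rich in CpG. Windows of 300 bases, 250 before and 50 after each RefSeq start on GRCm38.p6, were found for 41 of 44 genes. Averaged over the windows of a gene, they held a median of 30 CpG for the regulators, against 14 over 16469 coding genes and 22 over 6934 detected coding genes. A search on both strands for the E2F motif, as TTTCCCGC, TTTCGCGC, TTTGCCGC or TTTGGCGC, found a match in any window of 7 of 41 regulators (17.1%), against 3.32% of coding genes and 5.41% of detected coding genes. Counted by window, a match stood in 7 of 56 (12.5%), against 2.87% of windows of coding genes and 4.49% of those of detected coding genes. E2F factors are known to drive genes of the S phase. The 7 were Dnmt1, Uhrf1, Ezh2, Suz12, Suv39h1, Kat2a and Arid1a. Each of these motifs contains a CpG, and the shares were not adjusted for the higher CpG content of the regulators' windows. Whether the regulators hold more matches than that content gives was not tested. A match is a description of letters in a window and not a bound site.

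The windows of Dnmt1 (chr9:20952574-20952873, minus strand), Uhrf1 (chr17:56304063-56304362, plus), Ezh2 (chr6:47594981-47595280, minus) and Suz12 (chr11:79992856-79993155, plus) are shown because they hold the motif in the genes that copy DNA methylation and in members of Polycomb repressive complex 2. Capitals mark the matches, which start at -219 and 33 in Dnmt1, -185 in Uhrf1, 3 in Ezh2 and -219 in Suz12, counted from 0 at the first transcribed base. Dnmt1 and Uhrf1 have further RefSeq starts whose windows hold no match. The windows of Eed and Ezh1, also members of Polycomb repressive complex 2, hold no match either.
Dnmt1: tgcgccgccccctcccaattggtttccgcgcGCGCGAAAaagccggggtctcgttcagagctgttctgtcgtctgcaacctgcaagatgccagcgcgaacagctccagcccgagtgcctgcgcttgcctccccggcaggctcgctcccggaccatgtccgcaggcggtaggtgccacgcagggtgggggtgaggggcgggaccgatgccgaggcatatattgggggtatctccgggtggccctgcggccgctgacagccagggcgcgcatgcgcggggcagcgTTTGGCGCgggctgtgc
Uhrf1: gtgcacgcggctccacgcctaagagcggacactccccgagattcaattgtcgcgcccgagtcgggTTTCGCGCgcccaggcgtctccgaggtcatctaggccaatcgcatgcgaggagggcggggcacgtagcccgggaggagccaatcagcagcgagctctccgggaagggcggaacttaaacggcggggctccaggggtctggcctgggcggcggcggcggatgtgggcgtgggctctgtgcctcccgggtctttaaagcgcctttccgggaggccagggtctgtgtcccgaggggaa
Ezh2: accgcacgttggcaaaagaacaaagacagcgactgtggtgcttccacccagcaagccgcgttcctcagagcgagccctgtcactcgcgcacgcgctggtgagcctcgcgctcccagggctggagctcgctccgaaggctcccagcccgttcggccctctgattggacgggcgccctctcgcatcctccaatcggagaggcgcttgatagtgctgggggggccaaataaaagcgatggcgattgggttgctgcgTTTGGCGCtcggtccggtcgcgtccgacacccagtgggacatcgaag
Suz12: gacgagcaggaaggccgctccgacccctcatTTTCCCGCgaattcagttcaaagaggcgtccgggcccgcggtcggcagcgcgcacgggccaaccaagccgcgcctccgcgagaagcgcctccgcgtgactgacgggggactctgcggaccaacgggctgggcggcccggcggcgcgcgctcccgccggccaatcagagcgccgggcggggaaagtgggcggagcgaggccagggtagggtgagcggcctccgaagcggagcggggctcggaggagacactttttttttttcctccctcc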

How the data were processed

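Total RNA-seq libraries of 3 Th1 samples were used. The authors deposited whole-number counts for each gene over GENCODE vM13 exons. Per the file headers they ran featureCounts v1.4.6-p4 in paired mode, with 1 as the strand setting, and the labels name mm10. The labels name total RNA, while the library protocol they link is named for poly(A) RNA. No aligner version or kit is given in the sources used here. TPM and CPM were computed from the counts and the deposited exon length.

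Of 50600 identifiers 50376 were named from GENCODE vM21. Overlaps between strands came from the deposited exon coordinates. Detection meant reaching 1 TPM in each of the 3 libraries. Logs use a pseudocount of 1. TMM factors and dispersions came from edgeR over 9466 genes that passed filterByExpr, with an intercept alone. The scaling was also run on simulated data with a smaller spread than these libraries and no shift of counts towards overlapped genes. That run is not used as support. DESeq2 gave the alternative size factors. The counting SD is the root mean of 1/count, in log2 units. For counting error only, 3 counts were the upper limit where none were found.

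The members and lists were chosen with earlier results of these data known. The text names all 44 members, the sex-linked demethylases and opposite-strand genes of members. Beyond these it may name the 2 highest genes of each further list and those under 1 TPM in every library, and it names some of them. Xist and the named markers were chosen after their values were seen. Alternatives were other thresholds, pseudocounts, units, scalings and filters, and each replicate left out. Tables were made in Python 3.11.15 (pandas 2.3.3, numpy 2.4.6), exact tests in SciPy 1.17.1 and figures in matplotlib 3.10.9. R 4.3.3 ran DESeq2 1.42.0 and edgeR 4.0.16.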

Additional observations from a re-analysis of the deposited data

How the results depend on the processing

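The number of regulators detected was 43 as reported, 39 at 5 TPM, 43 at 10 counts and 43 with any replicate left out. Shares of coding genes at these other settings are not given here. With TPM over clear genes alone the number was 23, since 24 regulators are clear, against 5932 of 15865 clear coding genes. Pairs of 1 sign in every library numbered 13 to 14 over the alternatives with all libraries, and leaving out a replicate gave 14 to 16. In CPM, Suz12 to Eed and Hdac2 to Hdac1 joined these pairs and Kmt2d to Kmt2a left them. Of 90 ratios under alternatives 5 turned. Leaving out a replicate, Suv39h1 to Suv39h2 ran from -0.82 to 0.26 (without replicate 2), Hdac2 to Hdac1 from -0.15 (without replicate 1) to 0.13, and Crebbp to Ep300 from -0.12 (without replicate 2) to 0.16. In CPM, Kmt2d to Kmt2a was 0.068 and Crebbp to Ep300 -0.010, and 9 of 18 mean ratios moved by over 1.5 times or turned. With library totals alone, 9 regulators (against 47.3% of coding genes) had an SD of at least 0.5, with a median SD of 0.346, and the regulators' median deviation was 0.23, 0.02 and -0.26 in replicates 1, 2 and 3, near that of coding genes (0.24, 0.07 and -0.29). Leaving out a replicate, the number was 1 to 8, against 25.6% to 39.8% of coding genes, and the median SD 0.136 to 0.203, over fewer libraries. Further genes of the complexes detected numbered 118 at 5 TPM and 160 to 166 with a replicate left out, again without shares of coding genes. Beyond what each setting does by construction, the cause was not tested. The counting SD was largest for Tet2 and Ezh1, at 0.238 and 0.217, and could not be computed for Tet1, which has a count of 0. No paired analysis was possible because there is 1 group.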
